A study of Mus musculus with 24 samples.

Results

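A set of 80 cDNA clones had a high female:male ratio in mouse ES cells before and early in differentiation. On average over the arrays late in differentiation, their ratio was near or below equality. They are called the fading clones here, and are 80 of the 3527 clones with a value on all 20 ES cell arrays, out of 15247 clones listed. Each value is an M value, the log2 ratio of the female to the male sample on one slide, with the median of the array set to 0. The clones were chosen by their M values: a clone belonged to the set when E, its mean over the 8 arrays of days 0, 2 and 4, was at least 0.65 and L, its mean over the 10 arrays of days 12, 15 and 21, was below 0.25. These 18 arrays chose the clones, so their values are given as a description without a test. The 2 arrays of day 7 and those of lymphocytes and inner cell mass (ICM) did not enter the choice.

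On the ES cell arrays, female cells were of PGK12.1, a line from a cross between strains, and male cells were of CCE/R. They were compared at days 0, 2, 4, 7, 12, 15 and 21 after replating on dishes to which the cells do not adhere, without leukaemia inhibitory factor. There were 4, 2, 2, 2, 3, 2 and 5 arrays at these days, lettered A to T. Lymphocytes from the thymus of Balb/c mice aged 4 weeks gave 2 arrays (U and V). Single ICMs, isolated from cultured Balb/c blastocysts of each sex, gave the last 2 (X and Y), from amplified RNA, with separate female ICMs and a repeated male sample. Each sex of ES cells is a single line, so that sex and line cannot be told apart on the ES cell arrays. The lines are not in the sample labels, and were taken from the methods of the study. The orientation female:male is likely from the definition of the M value in the study, but was not settled from the data. With male:female on every array, every sign given here would turn. With Cy5:Cy3 on every array, only the 4 ES cell arrays with the female sample in Cy3 would turn, and the rule would then choose 64 clones, 28 of them among the 80. Array A at day 0, with the female sample in Cy3, had a Pearson r of 0.62, 0.40 and 0.48 with B, C and D over the 3527 clones, as the values stand.

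Female ES cells carry a pair of active X chromosomes. On differentiation one of them is silenced along most of its length, a process led by the non-coding RNA Xist. Somatic cells such as lymphocytes keep a single active X chromosome, while in the ICM of the blastocyst the paternal X chromosome, inactive earlier, is reactivated. A gene expressed from both X chromosomes can therefore have a high female:male ratio that falls as silencing proceeds. For the female ICMs used here, however, the paper reports high Xist RNA. It holds it possible that an X chromosome was inactive in most or all of their cells. Genes on other chromosomes can also differ between the lines, for example when cells differentiate at different rates. The rows carry clone names only and 0 of 15247 matched a gene of the RefSeq table used here, so it is not known which of the fading clones are X-linked or which genes they represent. No marker of cell type could be checked for the same reason. In bulk RNA, a change in the share of cells expressing a gene and a change in the level per cell cannot be told apart.

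An array held values for 4985 to 13736 clones, and all 80 fading clones had a value on each of the 20 ES cell arrays, as the choice required. The female sample was labelled with Cy5 on 16 of these arrays and with Cy3 on 4, namely A at day 0, N and O at day 15 and P at day 21. Both lymphocyte arrays and both ICM arrays had it in Cy5. A dye effect common to either pair cannot be told apart from the ratio. Removal of abnormal spots by hand is stated in the labels of 11 of the 20 ES cell arrays.

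The fading clones had a median L of 0.01 (−1.25 to 0.24) and a median E of 0.83 (0.65 to 1.35). All 3527 clones had a median L of −0.04 and a median E of 0.00. The choice set no lower bound on L, which was below −0.25 in 20 of the 80 fading clones and in 921 of the 3527. The median difference L minus E was −0.93 over the fading clones and −0.06 over all 3527 clones. Of the clones with E at least 0.65 (173), the 93 that were not in the set kept a median L of 0.53, and had a median E of 1.07. These 93 are called the other early-high clones. The thresholds pass through a continuous range. The 3 fading clones nearest to the E threshold had E values of 0.6504, 0.6582 and 0.6628, against 0.6441, 0.6441 and 0.6431 for the nearest clones outside it. Likewise the fading clones nearest to the L threshold had L values of 0.2387, 0.2377 and 0.2351, against 0.2502, 0.2508 and 0.2613 outside it. The reverse pattern, with L at least 0.65 and E below 0.25, was found in 56 clones.

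Array by array, the fading clones were high on all 8 early arrays. Their medians at day 0 were 0.64, 0.86, 0.85 and 0.60 on arrays A, B, C and D. They were 0.89 and 1.10 on E and F at day 2, and 0.96 and 0.84 on G and H at day 4. Each early array had 72 to 80 of the 80 clones above 0, against 45.6% to 53.8% of all 3527 clones. At day 7 the medians were 0.45 on I and 0.47 on J, with 64 and 61 clones above 0. Day 12 was mixed. The medians were 0.32 on K, −0.02 on L and 0.36 on M, with 53, 39 and 57 clones above 0. Day 15 gave −0.43 on N and 0.06 on O. At day 21 the medians were −0.41, −0.21, 0.02, −0.11 and −0.10 on P, Q, R, S and T, with 23 to 41 clones above 0. The highest late median, that of array M, was thus below the lowest early one, as the choice of clones favours.

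**Figure D1:**
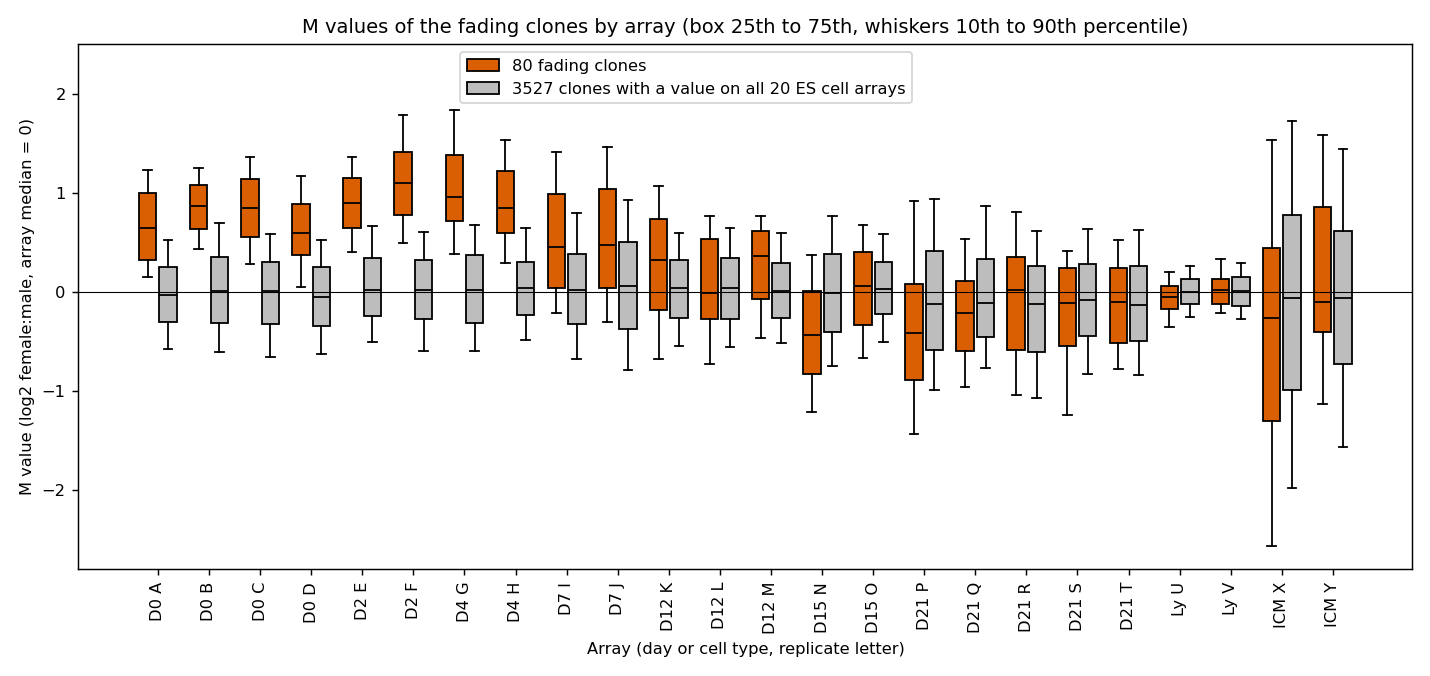
M values (log2, vertical axis) of the 80 fading clones (orange) and of all 3527 clones with a value on every ES cell array (grey) on each of 24 arrays; boxes span the 25th to 75th percentile with the median as a line, whiskers the 10th to 90th, Ly stands for lymphocytes. The orange medians lie between 0.60 and 1.10 up to day 4, at 0.45 and 0.47 on the day 7 arrays and between −0.43 and 0.36 afterwards.

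As means per day, the fading clones had medians of 0.74, 1.00, 0.91, 0.51, 0.29, −0.15 and −0.19 at days 0, 2, 4, 7, 12, 15 and 21. The other early-high clones had 1.00, 1.15, 1.07, 0.99, 0.71, 0.53 and 0.42 at the same days. The median of all 3527 clones stayed between −0.01 and 0.03 up to day 15 and was −0.13 at day 21. Relative to all clones, the median of the fading clones at day 21 was therefore close to the general level. A day 21 mean below −0.25 was found in 38 of the 80, against 1401 of the 3527. The number of fading clones with a day mean of at least 0.65 was 52, 72, 59, 35, 7, 2 and 2 over the 7 days.

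A rise after day 0 was not particular to the fading clones. The median of the other early-high clones was 1.00 before differentiation, and 1.15 and then 1.07 on days 2 and 4. That of all 3527 clones went from −0.01 to 0.03. Among the 80 fading clones, 51 had a mean over the arrays of days 2 and 4 above their day 0 mean. In 31 the mean over days 2 and 4 was at least 1. These counts were not made for other clones, and the arrays took part in the choice. At day 0, 52 clones were at 0.65 or above, 25 lay between 0.25 and 0.65, and 3 were below 0.25. These 3 entered the set through days 2 and 4. Of the 80 clones, 60 were above 0 on all 8 early arrays and 17 on 7 of them.

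Some memberships rested on a single array. Without its highest early array, E came below 0.65 in 18 clones. In 2 clones the value on array A at day 0 stood far above the rest. The first had 6.49 on A, and 0.07, 0.64 and 0.48 on B, C and D. Its E was 1.10 with array A and 0.33 without it. The second had 5.41 on A, and 0.11, 0.46 and −0.02 on B, C and D. Its E was 0.82 with array A and 0.16 without it. Neither clone would belong to the set without array A. At the other end, L reached 0.25 or more in 22 clones when the lowest late array was left out.

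From day 7 on, the first day with a day mean below 0.25 differed between the clones. It was day 7 in 25 clones, day 12 in 24, day 15 in 19 and day 21 in 12. An L below 0.25 made such a day certain for each clone. Earlier days were not searched, and 3, 4 and 6 clones had a mean below 0.25 at days 0, 2 and 4. Of the 25 clones first below at day 7, 10 stayed below 0.25 at all 3 later days, and of the 24 at day 12, 19 stayed below at both later days. In 12 of the 25 clones the mean at day 12 was again 0.25 or above. Over the whole set, 43 clones had a day 12 mean of at least 0.25, and 42 of these were below 0.25 at day 21. The day 15 mean was below the day 12 mean in 64 clones, and the day 21 mean below the day 15 mean in 42.

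**Figure D2:**
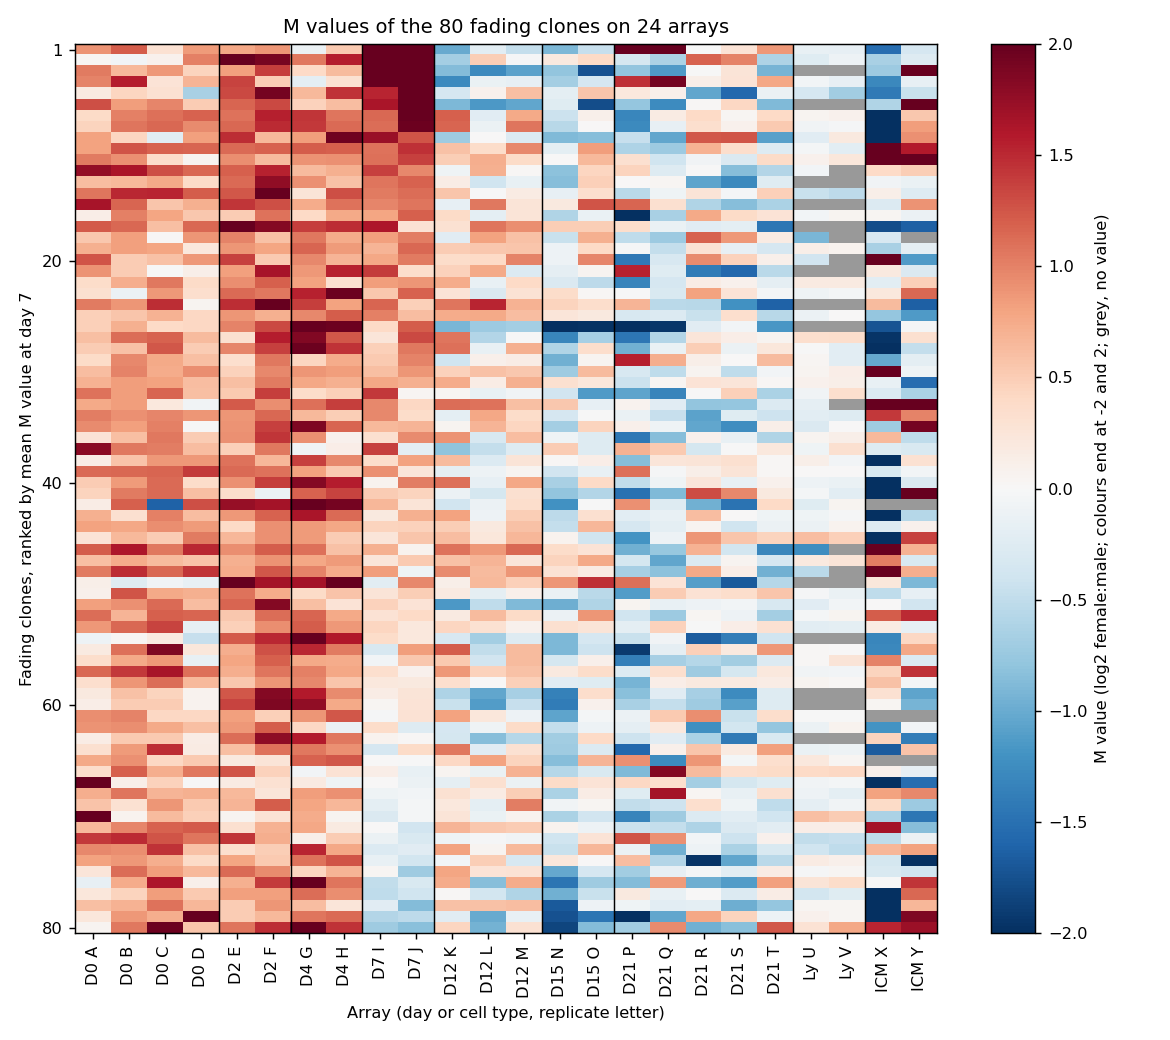
Heat map of the M values of the 80 fading clones (rows, ranked by mean M value at day 7, highest at the top) on 24 arrays (columns, lines separate days and tissues; Ly, lymphocytes; grey, no value); colours end at −2 and 2. The early columns are mostly red, the day 7 columns grade from dark red to pale blue, and the day 21 columns hold red and blue cells within the same row.

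The arrays of one late day did not order the clones alike. At day 12, 40 clones had the same sign on K, L and M, and 20 were above 0 on K and M but below 0 on L. At day 21, only 13 of the 80 clones had the same sign on all 5 arrays. Arrays R and S were alike over the fading clones (Pearson r = 0.80 across the 80 clones, which are not independent). Array P ran against both (r = −0.36 with each). Over all 3527 clones r was 0.73 for R and S, 0.03 for P and R, and 0.28 for P and S. These arrays took part in the choice, and choosing clones by a mean can lower r between the arrays that form it. In 17 fading clones P and Q were below 0 while R and S were above it, and in 7 the signs were the other way. The signs on late arrays were not counted over all 3527 clones, so these counts are a description. The median SD over the 5 arrays of day 21 was 0.612 for the fading clones and 0.416 for all 3527 clones. Over the 4 arrays of day 0 it was 0.317 and 0.275. An L near 0 was thus often the mean of late values on both sides of 0, rather than of values all close to 0. Of the 80 clones, 43 had an L above 0 and 37 below.

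Day 7, which did not enter the choice, separated the set. The median of the fading clones was 0.51 (−0.77 to 2.68), against 0.02 for all 3527 clones and 0.99 for the other early-high clones. The day 7 mean was above 0 in 65 fading clones (81.2%), against 51.7% of all 3527 clones. Both day 7 arrays were above 0 in 56 clones and below 0 in 11, and 13 clones had opposite signs. The 2 arrays were fairly alike over the fading clones (r = 0.74) and less so over all 3527 clones (r = 0.59). In a limma fit with a mean per day over the 20 ES cell arrays, 17 of the 80 clones were higher in female cells at day 7 with an adjusted p under 0.05, and 0 were lower. The background was 7.06% higher and 2.74% lower of the 7122 clones tested, and 8.56% higher and 3.71% lower of the 3527 clones with a value on every ES cell array. The share of fading clones called higher, 21.2%, was thus above both backgrounds, and below the 61.3% of the other early-high clones (57 of 93). These shares were not tested against each other. At an unadjusted p under 0.05, 29 fading clones were higher and 1 was lower (37.5% of the 80), against 24.8% of the 7122 clones in either direction. The p-values measure the spread between arrays, which the study describes as biological replicates for ES cells.

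The 17 called clones had day 7 M values of 0.74 to 2.68 with a median of 1.27, and adjusted p-values of 9.1e-05 to 0.049. They lay between 0.54 and 2.34 on array I and between 0.61 and 3.03 on array J. A mean of at least 2 was found in 6 of them, 7 were between 1 and 2, and 4 were below 1. Their day medians were 0.75, 1.16, 0.90, 1.27, 0.22, 0.09 and −0.10 at days 0, 2, 4, 7, 12, 15 and 21. Day 7 was their highest day by median, which calling them at day 7 favours, and the later medians were near 0. At day 12, 10 of the 17 were below 0.25, and 15 were at day 21. The 63 clones not called had medians of 0.71, 0.95, 0.91, 0.38, 0.31, −0.16 and −0.26 at the same days.

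The number of clones called at day 7 depended on the 2 arrays of that day. Without array I it was 10, and without array J it was 1, against 17 with both arrays. The background of higher calls was then 3.64% of 6836 clones without I and 1.34% of 7070 without J. With any of the other 18 ES cell arrays left out, 16 of the 17 clones kept an adjusted p under 0.05. A fit of the day 7 arrays alone, which uses none of the arrays of the choice, called 18 fading clones higher (22.5%), including 13 of the 17, with a background of 7.3% of 8395 clones. With the 4 arrays that carried the female sample in Cy3 turned in sign, 9 of the 17 were called and no other fading clone (11.2% of the 80), with a background of 3.15%. Both day 7 arrays had the female sample in Cy5, so that turning the dyes left the day 7 means as they were and changed only the estimate of the spread. A dye effect common to both day 7 arrays cannot be told apart from the ratio.

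**Figure D3:**
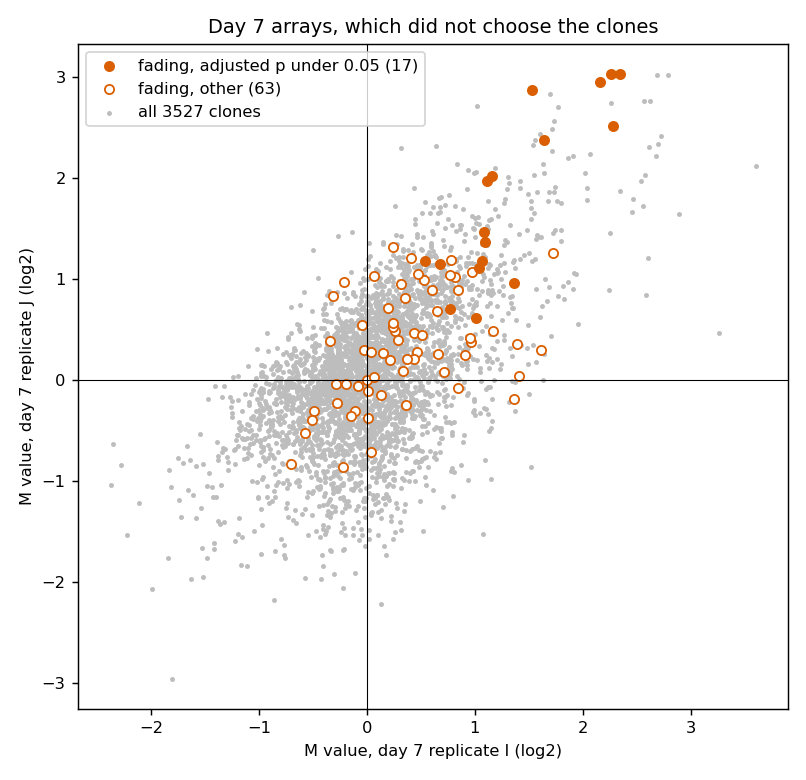
M values (log2) on the 2 arrays of day 7, replicate I on the horizontal and replicate J on the vertical axis, for the 17 fading clones called higher (filled orange), the other 63 (open orange) and all 3527 clones (grey). The filled points lie between 0.54 and 2.34 on I and between 0.61 and 3.03 on J, and the open points spread on both sides of 0.

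By the level at day 7, 35 clones had a mean of at least 0.65, 20 lay between 0.25 and 0.65, and 25 were below 0.25. Their median E values were close, at 0.84, 0.88 and 0.80 for the 3 classes. Their day 12 medians were 0.32, 0.40 and 0.21, and their day 21 medians were −0.25, −0.11 and −0.24. Their day 2 medians were 1.09, 1.00 and 0.84, and their day 15 medians −0.12, −0.11 and −0.29. The choice of clones bounds E and L in all 3 classes. Over the 80 clones the day 7 mean had a Pearson r of 0.18 with the mean of days 2 and 4, of −0.18 with the day 12 mean and of 0.21 with the day 21 mean. By rank (Spearman) these were 0.24, 0.03 and 0.09, so the sign at day 12 depended on the measure. With the day 0 and day 15 means, Pearson r was −0.12 and 0.09, and by rank −0.055 and 0.19. The day 7 mean was above E in 20 clones, between L and E in 46 and below L in 14.

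The clones with the highest and the lowest mean at day 7 showed how far the courses differed. Clone H3039c09 was the highest, with 2.34 on array I and 3.03 on J, an M value of 2.68 (SE 0.42, adjusted p = 0.00086). It had 0.90, 1.20, 0.30 and 0.86 on the 4 arrays of day 0. It had 0.78 and 0.88 at day 2, and −0.12 and 0.53 at day 4. Both day 7 values were above all 8 early ones. After day 7 all values at day 12 were below 0 (−1.01, −0.20 and −0.48), as were both at day 15 (−0.91 and −0.47). At day 21 it had 2.25, 2.02, −0.0039, 0.28 and 0.86 on P to T. Its L of 0.24 was thus a mean of low values at days 12 and 15 and of high values on P and Q at day 21. It lies among the fading clones nearest to the L threshold.

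Clone H3126c03 came next, with 2.26 on I and 3.03 on J, an M value of 2.65 (SE 0.47, adjusted p = 0.0020). At day 0 it was near 0 on 3 arrays, with 0.04, −0.06 and 0.09 on A, B and C, and had 1.01 on D. It reached 3.75 and 1.90 at day 2, and 1.06 and 1.58 at day 4. The high early mean of this clone came from days 2 and 4, not from day 0. Its values were −0.68, 0.49 and −0.03 at day 12, and 0.19 and 0.40 at day 15. At day 21 it had −0.35, −0.63, 1.17, 0.99 and −0.62, with R and S apart from the others. Without array J, H3039c09 had an adjusted p of 0.065 and H3126c03 of 0.11.

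Clone H3089e04 had the lowest mean at day 7, with −0.71 on I and −0.83 on J. Its M value of −0.77 (SE 0.53) did not pass the test (adjusted p = 0.40). It had 0.05, 1.05, 1.96 and 0.55 at day 0. Values of 1.08 and 1.47 at day 2, and of 2.57 and 1.45 at day 4, followed. Both day 7 values were below all 8 early ones. At day 12 it was above 0 on K and M (0.43 and 0.30) and below on L (−0.94). At day 15 it had −1.84 and −0.86. Day 21 gave −0.70, 0.94, −0.95, −0.83 and 1.24, so that the arrays of that day lay on both sides of 0.

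Clone H3086f01 was the next lowest, with −0.58 on I and −0.53 on J, an M value of −0.55 (SE 0.50, adjusted p = 0.56). It had 0.23, 0.87, 0.73 and 1.99 at day 0. All its values at days 2 and 4 were above 0 (0.50, 0.65, 1.06 and 1.13), and all at days 7, 12 and 15 were below 0. At day 12 these were −0.22, −1.01 and −0.15, and at day 15 −1.74 and −1.46. At day 21 it had −2.15, −1.04, 0.78, 0.45 and −0.10. Only R and S were above 0.

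**Figure D4:**
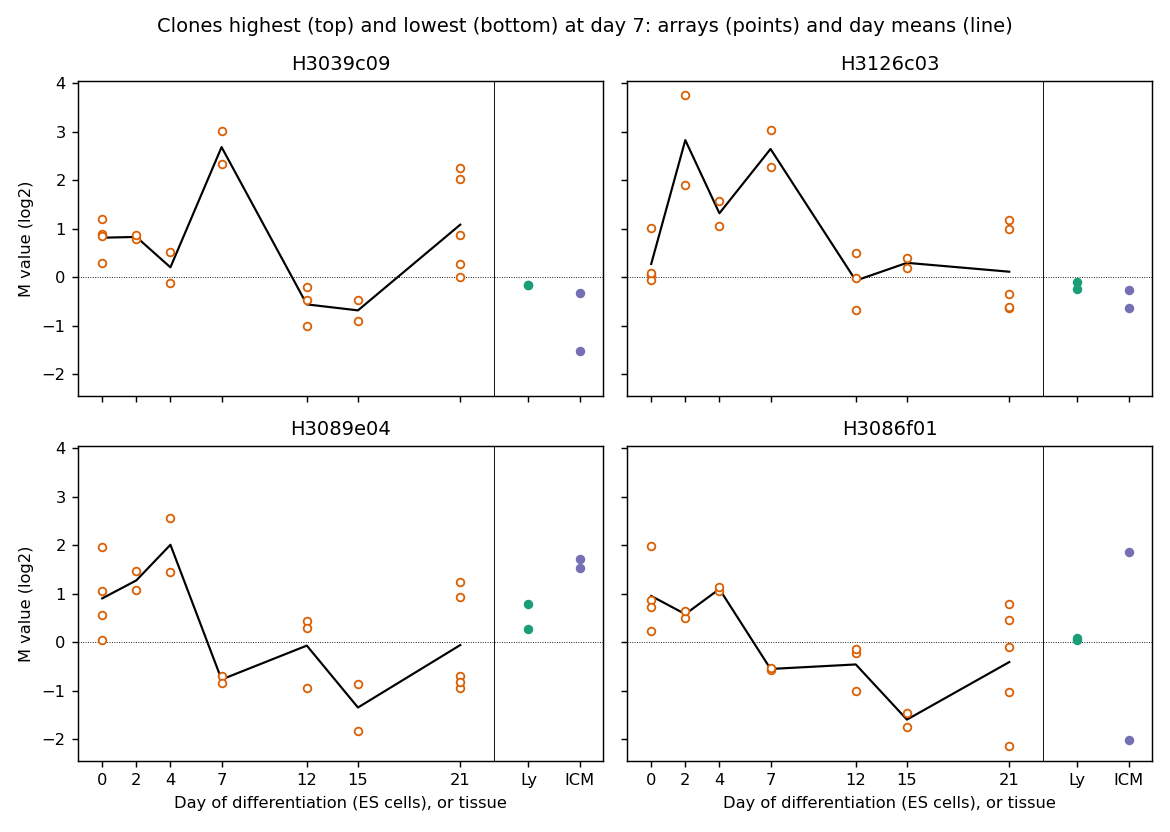
M values (log2, vertical axis) by day of differentiation for the 2 fading clones highest at day 7 (H3039c09 and H3126c03, top) and the 2 lowest (H3089e04 and H3086f01, bottom); open points are arrays, the line joins day means, and filled points right of the vertical rule are lymphocyte (Ly) and ICM arrays. The upper clones reach 2.68 and 2.65 at day 7 and the lower ones −0.77 and −0.55, and the day 21 points of each clone are widely spread.

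Some fading clones had nearly the same profile as another. Of 3160 pairs of fading clones, 10 had a Pearson r of at least 0.95 over the 20 ES cell arrays (0.316%), against 0.00864% of all pairs of the 3527 clones. A higher share is built in, since the fading clones were chosen for a common course. The pairs formed 8 groups with 17 clones, 1 of them a group of 3. Whether such clones represent the same gene is not known without a table of genes. Counted once per group, the set had 71 distinct profiles, and the clones called at day 7 had 14. H3039c09 is in such a pair (r = 0.96), whose other clone had a day 7 mean of 2.40, and H3089e04 is in another (r = 0.97), whose other clone had −0.40. The fading clones came from 62 of the 159 plates of the library, with at most 3 from the same plate. In adjacent wells of a row, 2 pairs were found, and their profiles were near-identical (r = 0.97 in each).

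In lymphocytes the fading clones were close to equality between the sexes, as were the 3527 clones in general. Both arrays had a value for 61 of the 80 clones, 6 had a value on one array and 13 on neither. The median over the 61 clones was −0.01 (−0.52 to 0.56), against 0.01 for the clones of the 3527 with both values. The 25th and 75th percentiles were −0.12 and 0.10 for the fading clones, and −0.12 and 0.13 for those other clones. A mean near 0 was thus not particular to the fading clones. The medians were −0.05 on U and 0.02 on V. Of the 61 clones, 23 were above 0 on both arrays, 25 below 0 on both and 13 of opposite sign, and 50 had a mean between −0.25 and 0.25. With limma on these 2 arrays, 4 of the 61 clones were higher in females and 3 lower. The background was 5.27% higher and 5.68% lower of the 7781 clones tested, and 4.07% and 4.1% of those among the 3527, so that shares of 6.56% and 4.92% were near it. The called values were small, 0.35 to 0.56 in size. The clone with the largest, 0.60 on U and 0.51 on V, was the one with 6.49 on array A. At an unadjusted p under 0.05, 8 were higher and 7 lower (24.6% of the 61), against 36.7% of all clones tested. In a fit that pools the spread with day 7 and ICM arrays, 0 of 58 fading clones passed in each direction, and 0 with either lymphocyte array left out, also at an unadjusted p under 0.05.

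Of the 17 clones called at day 7, 13 had values on both lymphocyte arrays, and their median was −0.06 (−0.52 to 0.15). H3039c09 had −0.15 on U and −0.17 on V, and H3126c03 −0.24 and −0.11. H3089e04 had 0.28 and 0.78, and H3086f01 0.09 and 0.04. Of these 4 clones, those highest at day 7 lay below 0 in lymphocytes and those lowest above 0. None of the 4 passed the test in lymphocytes (adjusted p of 0.076 to 0.49), and they had been picked as extremes of day 7. Over the 61 clones with both lymphocyte values, the day 7 and lymphocyte means had a Pearson r of −0.27. By rank (Spearman) it was −0.18, and neither was tested.

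In the ICM the arrays differed too much for single clones to be placed. Both arrays had a value for 76 of the 80 clones. The median was −0.27 (−2.31 to 3.15), against −0.11 for the clones of the 3527 with both values. It was −0.27 on X and −0.10 on Y. Only 13 clones were above 0 on both arrays and 24 below on both, and 39 had opposite signs. The correlation of X and Y over the fading clones was weak (r = 0.07), and it was 0.33 over the clones of the 3527 with both values. The arrays differed by 2 or more in 26 clones. Array X had 13 fading clones below −2 and 7 above 2, array Y 1 and 5. Such a spread was not particular to the fading clones. Their scaled median absolute deviation was 1.37 on X and 1.05 on Y, against 1.32 and 0.99 over the 3527 clones. With limma, 0 of 76 clones were higher and 0 lower, and the background was 0% in each direction of 11515 clones. At an unadjusted p under 0.05, 4 were higher and 2 lower (7.89% of the 76), against 13.5% of all clones tested, and the lowest adjusted p was 0.22. A fit pooling the spread with day 7 and lymphocyte arrays called 6 of 58 clones higher (10.3%) and 1 lower (1.72%), with a background of 8.75% and 10.8%. With a single ICM array in that fit, whose spread is then assumed to be that of the other arrays, the counts became 16 higher and 7 lower without X, and 12 higher and 23 lower without Y. The background was then 21.1% higher and 23.7% lower without X, and 24.9% higher and 31.1% lower without Y. The high early level of the fading clones was thus not detectable in the ICM with these 2 arrays.

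Among the named clones, H3039c09 had −1.53 on X and −0.33 on Y, and H3126c03 had −0.65 and −0.26. H3089e04 was high on both, with 1.53 and 1.72. H3086f01 had −2.01 and 1.87, on opposite sides of 0.

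**Figure D5:**
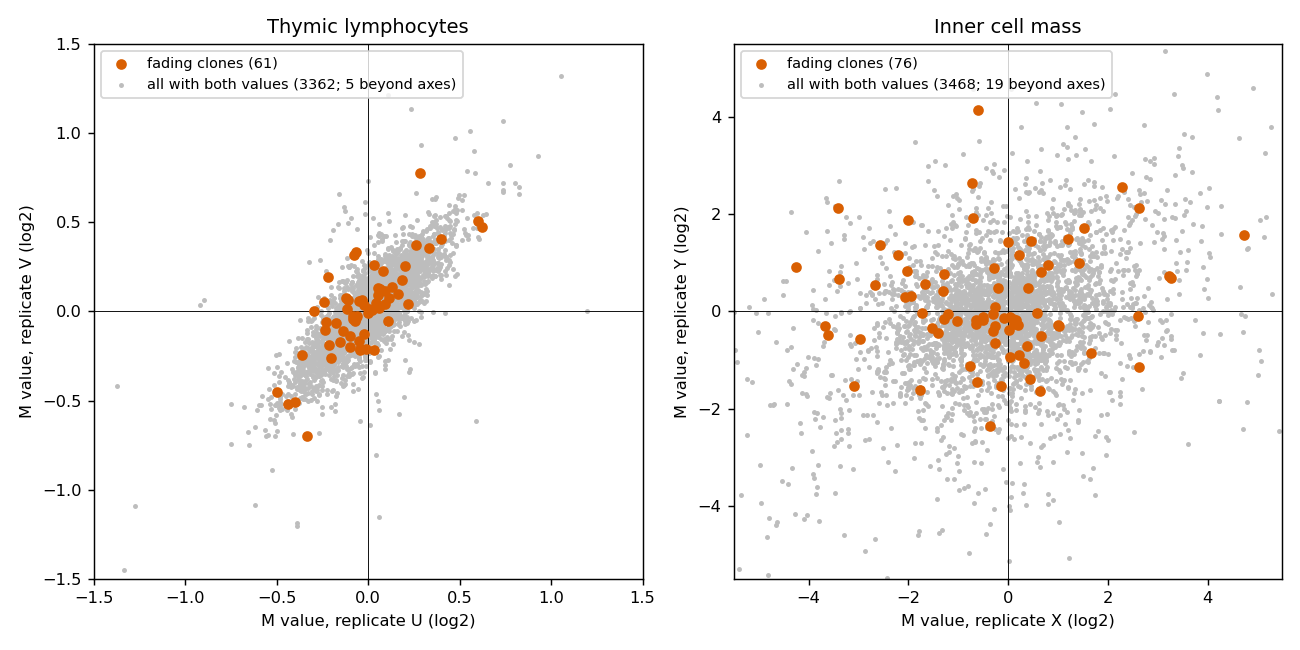
M values (log2) of the fading clones (orange) and of all clones among the 3527 with both values (grey) on the 2 lymphocyte arrays (left, U against V) and the 2 ICM arrays (right, X against Y); the scales of the panels differ. The fading clones lie between −0.52 and 0.56 in their lymphocyte means, along the diagonal, and scatter over all quadrants in the ICM.

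The level at day 7 was set against the other samples in a fit of 6 arrays, over clones with a value on all 6, which held 58 fading clones. The fit takes a common spread between replicates for these groups, although the arrays were unlike in spread. Over the 3527 clones the scaled median absolute deviation was 0.52 and 0.65 on I and J. It was 0.19 and 0.21 on U and V, and 1.32 and 0.99 on X and Y. The median difference day 7 minus lymphocyte was 0.51 over these 58, against 0.02 over the clones of the 3527 tested. In this comparison 0 fading clones were higher and 0 lower, with a background of 0% of 6502 clones. At an unadjusted p under 0.05, 7 were higher and 1 lower (13.8% of the 58), against 6.12% of all clones tested. With the spread of all arrays made equal, 5 were higher and 2 lower, with a background of 2.45% and 2.55%. With the 4 compared arrays alone 4 of 61 were higher and 0 lower, with a background of 1.26% and 0.593%. The median difference day 7 minus ICM was 0.70 over the 58 clones, against 0.17. Here 5 clones were higher at day 7 and 1 lower, with a background of 4.94% higher and 3.75% lower, or 4.47% and 3.08% among the 3527. The share higher, 8.62%, rested on few clones. Among those 5 are H3039c09, its near-identical partner and H3126c03. With either day 7 array left out, or with the 4 compared arrays alone, the counts were 0 and 0. Without X they were 15 and 13, with a background of 22% and 19%, and without Y 30 and 8, with a background of 30.1% and 24%.

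H3039c09 was higher at day 7 than in the ICM by 3.62 (SE 0.52, adjusted p = 0.022), and H3126c03 by 3.10 (SE 0.40, adjusted p = 0.017). H3089e04 was lower at day 7 than in the ICM, with a difference of −2.39 (SE 0.35, adjusted p = 0.023). Against lymphocytes the differences were 2.85, 2.82 and −1.30 for the same clones, with adjusted p-values of 0.64, 0.53 and 0.64. These clones were named for their extreme day 7 means, which enter each difference. The choice thus favours large differences and low p-values for them.

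The early and late arrays differed in dye and in the labels' statement on spots removed by hand, so the levels were also taken within these classes. On arrays with removal stated (7 late, 3 early), the median of the fading clones was −0.04 late and 0.87 early, and 61 of the 80 met both thresholds. Without the statement (3 late, 5 early), it was 0.09 late and 0.83 early, and 50 met both. With the female sample in Cy5 (7 late, 7 early), it was 0.05 late and 0.84 early, and 60 met both. With the female sample in Cy3 (3 late and 1 early), it was −0.15 late and 0.64 early, and 30 met both. The late level was below the early one in 80, 79, 80 and 77 clones of the 80 in these classes. These arrays are those of the choice, so the counts are a description.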

How the data were processed

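The deposited values are log2 female:male ratios (M values), a value per clone and array of the NIA 15K cDNA library. They had been extracted with GenePix and normalised with Gepas by the authors, who also discarded some spots by eye. Which Gepas method was applied, and how background, duplicate spots and absent values were treated, is not given in the sources used here. No spot intensities were used, and the error of a clone comes from replicate arrays alone.

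Each array was centred on its median. The fading clones and all comparisons were chosen with earlier results of these data known. The test at day 7 took the 7122 clones measured at least once on every day, in a limma model (version 3.58.1, R 4.3.3) holding a mean per day for the 20 ES cell arrays, with Benjamini-Hochberg adjustment over all clones; an adjusted p under 0.05 was called. For lymphocytes, and likewise for the ICM, a fit of 2 arrays used clones with both values, and differences came from a fit of 6 arrays. The day 7 fit, a fit of 2 arrays and a difference in the fit of 6 arrays were first tested on simulated data. The simulated arrays had a common spread for each clone, whereas the day 7, lymphocyte and ICM arrays were unlike in spread. Fits with covariates, array weights or robust moderation were not simulated. Members are not replicates, so medians over them carry no p.

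Named are the 2 fading clones with the highest day 7 mean among those called and above 0 on both arrays, and the 2 with the lowest; the partner clones of near-identical profile, the clones called in lymphocytes and the 2 clones high on array A are unnamed and were chosen after their values were seen. RefSeq genes were those of GRCm38.p6. Alternatives were the values as deposited, other centring, scaling to a common spread, values turned by dye, other filters, covariates for dye and label text, robust moderation (statmod 1.5.0), array weights, the compared arrays alone and each array left out.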

Additional observations from a re-analysis of the deposited data

Results flagged for a closer look

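At day 0, 3 values stood far from the other 3 arrays of that day. Clone H3126c03 had 1.01 on array D, against 0.04, −0.06 and 0.09 on A, B and C. The clones with a single high value on array A had 6.49 and 5.41 there. These came from 18 groups of 4 or 5 arrays examined, of which chance would give about 1 in 20, and the clones had been picked partly for such values.

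The difference between day 7 and the ICM passed the test in 5 fading clones that were higher at day 7 and 1 that was lower (limma, adjusted p under 0.05). With the 4 compared arrays alone, no fading clone passed. Among the named clones it was 3.62 for H3039c09, 3.10 for H3126c03 and −2.39 for H3089e04. Naming clones by their day 7 means favours such differences. The 2 ICM arrays differed by 2 or more in 26 of 76 fading clones.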

How the results depend on the processing

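No paired analysis was possible because the replicates carry letters that no groups share. The number of fading clones was 80, 70 to 110 under other centring, scaling, averaging and choice of arrays, 64 with values turned by dye (28 of them among the 80), and 71 to 94 with single arrays left out. With thresholds chosen after seeing the data it was 107 (0.60 and 0.30) and 63 (0.70 and 0.20). The 17 higher at day 7 became 9 with values turned by dye, 12 with arrays scaled to a common spread, 14 with near-identical clones counted once (added after seeing the data) and 21 with the strictest filter, and 1 to 20 with single arrays left out. In all 11 alternatives that left out no array, 9 of the 17 were called. The 0 lower stayed 0 in all.

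In lymphocytes, the 4 higher and 3 lower became 0 and 0 in the pooled fit, and 0 with either array left out. In the ICM, 0 and 0 became 6 and 1 in the pooled fit, 12 to 16 higher and 7 to 23 lower with an array left out. Day 7 minus lymphocyte, 0 and 0, became 5 higher and 2 lower with scaled arrays, and 4 higher with the compared arrays alone. Day 7 minus ICM, 5 and 1, became 0 and 0 with the compared arrays alone, and 0 lower with scaled arrays. With single arrays left out it was 0 to 30 higher and 0 to 13 lower. The cause was not tested.

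The day 7 median of 0.51 was 0.47 with centring on the 3527 clones, 0.60 as a mean over clones and 0.45 to 0.47 with an array left out. The ICM median of −0.27 was −0.080 as a mean and −0.27 to −0.10 with an array left out. The named clones kept their sign under all 31 alternatives to the day 7 test. H3039c09 and H3126c03 kept an adjusted p under 0.05 in all but the one without array J, and H3089e04 and H3086f01 passed in none.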
